A study of Mus musculus with 11 samples.

Results

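Peritoneal macrophages of RELMα knockout mice were compared after injection of IL-4c, a complex of interleukin-4 and an antibody against it, and after injection of PBS. The comparison used 6 of the 11 mice analysed, namely 2 PBS-treated RαTd/Td mice (mice 3 and 4) and 4 IL-4c-treated RαTd/Td mice (mice 9, 10, 11 and 12), chosen by their labels for treatment and genotype. All 6 were female mice of strain C57BI/6, as the labels spell it, aged 6 to 8 weeks, injected intraperitoneally on day 0 and day 2, with cells collected on day 4. Both groups carried the RαTd/Td genotype, in which the coding part of Retnla, the gene for RELMα, is replaced by a TdTomato reporter followed by a WPRE element. The replacement was made constitutive with a deleter mouse whose cre is driven by pCMV. In both groups the cells analysed were sorted as CD11b+ and F4/80+, and each sample came from 1 mouse of a single experiment. The other 5 mice were RELMα-sufficient (Rα+/+), 2 of them given PBS and 3 given IL-4c. They served here to estimate the spread and to test whether the response differed between genotypes. The paper had removed another IL-4c-treated Rα+/+ mouse, which clustered with PBS-treated mice, and held ineffective IL-4c delivery to be likely. The spread and the genotype test therefore rest on the Rα+/+ mice that were kept.

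IL-4 binds a receptor that contains IL-4Rα and acts through the transcription factor STAT6. In macrophages it sets off alternative, or M2, activation, known for the enzyme arginase 1, chitinase-like proteins, mannose receptor and RELMα itself, and in serous cavities it also drives resident macrophages to divide. The question of the comparison is which of these programs run in macrophages that cannot make RELMα.

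Transcripts were counted on the Nanostring platform (Myeloid Innate Immunity v2 panel), in which 1 barcoded probe per gene is counted without amplification. The values are counts scaled by 1 factor per mouse, set on Eef1g, Gusb, Oaz1 and Rpl19 as housekeeping genes, here called normalized counts, and low values had been replaced by a floor of 30. The panel listed 754 genes. Testing took in the 445 whose mean over all 11 mice exceeded 30, since 309 never left the floor. Of the 445, 18 were at the floor in all 6 RαTd/Td mice and could not be called there on this scale. They stay in the shares and medians below. Summed counts above the floor were 268858 and 280396 in the PBS-treated and 447267 to 523942 in the IL-4c-treated RαTd/Td mice, and values could be measured down to 56.1 or 56.3 after PBS and 30.5 to 34.4 after IL-4c. Values were compared by limma on the log2 scale after adding 1. A gene is referred to as called, or as having risen or fallen, at an adjusted p of 0.05 or less. Lost calls given beside a gene are mainly those in fits without 1 mouse, after rescaling or with a single floor. Losses in the other settings are counted at the end for the genes named by rule. Where all mice of a group were at the floor, the fold given is a lower limit. The smallest value measurable in each of those mice (geometric mean) is put in place of the floor. Mice tied at the floor also add no spread to the fit, so the SE and p of such genes may be too small. Housekeeping counts set against the positive controls differed between the groups, their geometric mean being 0.889 and 0.937 times the positive control counts after PBS and 2.47 to 2.86 times after IL-4c. All levels below are relative to the housekeeping genes, and amounts per cell were not measured. The log2 fold changes of the housekeeping genes themselves lay between -0.25 for Rpl19 (adjusted p = 0.053) and 0.22 for Gusb (adjusted p = 0.14). The paper states the same number of lysed macrophages for both treatments, so a fall here need not be a fall per cell.

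Retnla was at the floor in all 6 RαTd/Td mice, before and after IL-4c, which fits the labelled genotype. In Rα+/+ mice it stood at 4631 and 4141 normalized counts after PBS and at 115675, 147349 and 171588 after IL-4c.

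The sorted cells carried macrophage genes in both groups. Adgre1, which encodes the sort marker F4/80, was at 7221 and 7358 normalized counts after PBS and at 9033, 10126, 10617 and 7904 in IL-4c-treated mice 9, 10, 11 and 12, the order used for all values below. Itgam, which encodes the other sort marker CD11b, was at 7940 and 7780.2 and at 9480.2, 11106, 11130.1 and 8170.4. Gata6, the transcription factor that defines large, resident peritoneal macrophages, was at 624 and 654 after PBS and at 617, 624, 645 and 560 after IL-4c (log2 fold change -0.07, adjusted p = 0.749). Other macrophage markers were less steady. Of the 7 general macrophage markers on the panel, Cd68 rose, Fcgr1, Cd14, Csf1r and Mertk fell, and Itgam and Adgre1 were not called. Of the 8 markers of large peritoneal macrophages, 5 fell, as given with the genes for uptake. All markers on the panel for T cells (2 of 12 listed), NK cells (3 of 8) and eosinophils (6 of 7) were at the floor in all 11 mice. Of 7 mast cell and basophil markers, 5 were at the floor, and Hdc and Cpa3 were tested and not called. The summed level of the 7 was 454.7 to 499.2 after PBS and 350.5 to 400.3 after IL-4c. Of 6 dendritic cell markers, Batf3 rose, Irf8 fell and 4 were at the floor. Markers of B cells were the exception among lymphocytes, since Ms4a1 was measured after PBS, as given beside the MHC class II genes.

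After IL-4c, 231 of the 445 tested genes (51.9%) were called in RαTd/Td macrophages. Of these, 68 genes (15.3%) rose and 163 (36.6%) fell, and at an unadjusted p of 0.05 or less the count was 258. The 4 IL-4c-treated mice all lay above both PBS-treated mice in 84 genes (18.9%) and below both in 194 (43.6%). All 68 rises and 162 of the 163 falls were of this kind, the exception being Siglec1, for which mouse 12 lay above both PBS-treated mice. Changes of at least 2 on the log2 scale were called in 17 genes upward and 18 downward, so the few strongest changes were divided almost evenly. The surplus of falls was made up of smaller changes, and it depended on the scale: the median log2 fold change over all tested genes was -0.23, and 29.4% of the calls were higher. Centring each mouse on its median gene, which added 0.33 to every log2 fold change, gave 140 higher and 103 lower, or 99 and 98 with values at the floor left there, and quantile normalization gave 89 higher and 109 lower. Fold changes below are to be read against that median of -0.23. Counts for the gene lists are to be read against the 15.3% of all tested genes that rose and the 36.6% that fell.

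**Figure D1:**
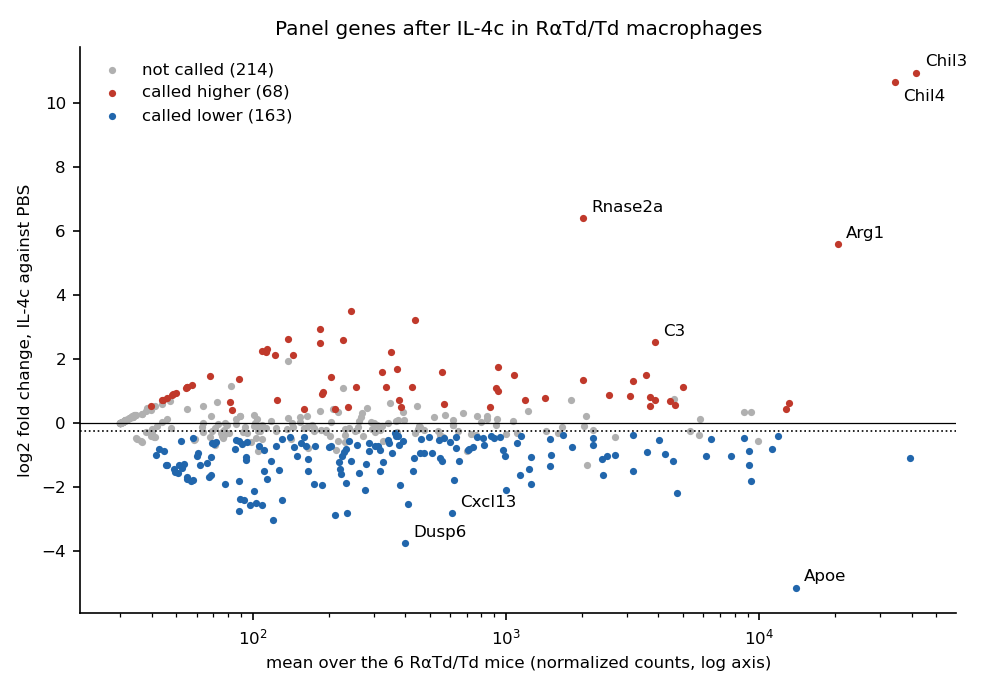
Each point is 1 of the 445 tested genes. The x axis gives its mean over the 6 RαTd/Td mice in normalized counts (log axis) and the y axis its log2 fold change, IL-4c against PBS, with red for the 68 genes called higher, blue for the 163 called lower, grey for the others and a dotted line at the median of -0.23. Chil3, Chil4, Rnase2a and Arg1 stand above 5, and Apoe stands alone at the bottom.

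Alternative activation genes had the largest fitted rises, with lower limits only where PBS-treated mice were at the floor. Chil3, which encodes the chitinase-like protein Ym1, was at the floor in both PBS-treated mice and at 69619.8, 81626, 55754 and 43527 normalized counts after IL-4c. That is at least 1084-fold higher (adjusted p = 1.33e-09). Chil4, its neighbour on chromosome 3 that encodes Ym2, was likewise at the floor after PBS and at 58808, 67801, 45820.2 and 33419.5 after IL-4c, at least 884-fold higher (adjusted p = 7.24e-09). These paralogs are closely related in sequence, and whether their probes share targets was not tested. Rnase2a, an eosinophil-associated ribonuclease also made by alternatively activated macrophages, went from the floor to 2681, 5703, 1430.3 and 2192, at least 46.8-fold higher (adjusted p = 5.94e-06). Mouse 10 was the highest of the 4 for all 3 genes. Arg1, the enzyme that splits arginine into ornithine and urea, was measured in the resting knockout cells at 510.2 and 753 and reached 31032, 33469, 23131 and 33953 after IL-4c (log2 fold change 5.60, SE 0.39, adjusted p = 3.53e-06). Even the lowest IL-4c-treated mouse was far above the higher PBS-treated one, and the call held with each mouse left out and under every rescaling.

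The promoters of Chil3 and Chil4 are shown because these neighbours had the highest lower limits of fold on the panel. They are the 250 bases before the annotated start, from RefSeq (build GRCm38.p6), read 5′ to 3′ on the minus strand, chr3:106167565-106167814 for Chil3 and chr3:106219480-106219729 for Chil4. Capitals mark matches to the STAT-type palindromes, TTCNNNGAA and the same with 4 in place of 3 bases between TTC and GAA, searched on both strands.
Chil3: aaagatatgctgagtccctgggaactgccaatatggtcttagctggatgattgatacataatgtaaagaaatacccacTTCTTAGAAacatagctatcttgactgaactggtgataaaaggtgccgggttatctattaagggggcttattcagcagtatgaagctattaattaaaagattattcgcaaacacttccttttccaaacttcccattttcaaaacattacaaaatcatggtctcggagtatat
Chil4: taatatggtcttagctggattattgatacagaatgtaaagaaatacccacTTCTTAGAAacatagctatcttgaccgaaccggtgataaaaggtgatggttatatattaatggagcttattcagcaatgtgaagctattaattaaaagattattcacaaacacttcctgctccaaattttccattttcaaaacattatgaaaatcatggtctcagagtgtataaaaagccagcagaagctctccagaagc
Each holds 1 match, to TTCNNNGAA, and its letters are the same in both. Without gaps, at the best shift of 28 bases, 150 of 222 positions (67.6%) were identical. Over the 32851 promoter windows searched, which left out a whole chromosome, 7.0% held TTCNNNGAA and 5.9% held the longer form. Of the 12 genes with the largest fitted rises, 8 had a promoter among these windows. TTCNNNGAA was found for Chil3 and Chil4 alone and the longer form for Top2a alone. Of the 12 genes with the largest falls, 10 had one, and the longer form was found for Clec7a and in 1 of the 2 windows of Nlrp3. The AP-1 motif TGANTCA, held by 6.7% of all windows, was in none of these promoters. A match describes the letters of the window and is no evidence of binding, and no match says only that the letters are not there.

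Beyond these, IL-4c moved the alternative activation list in both directions. Of 30 genes listed, 26 were on the panel and 20 were tested, of which 7 rose, 6 fell and 7 did not pass the test (median log2 fold change 0.05). The 13 called of 20 stand beside 51.9% of all tested genes. Il1rl1, which encodes the IL-33 receptor ST2, rose from the floor to 325, 383, 231 and 107, at least 4.19-fold (adjusted p = 0.000458). Tgm2, a transglutaminase used as an M2 marker in mouse and human, was at 30 and 80.8 after PBS and at 342, 228, 243 and 435 after IL-4c (log2 fold change 2.59, SE 0.43, adjusted p = 0.000852). Mouse 3 was at the floor for Tgm2, so its fold depends on that floor. Mrc1, the mannose receptor CD206, rose from 123 and 135 to 273, 444, 253 and 989 (log2 fold change 1.69, SE 0.52, adjusted p = 0.0218). Mouse 12 was the farthest above PBS. The Mrc1 call was lost without mouse 3 (1.62), 4 (1.75) or 10 (1.66) and with only the 6 RαTd/Td mice fitted. The genes of the list that fell were Clec7a, Fn1, Alox15, Il4ra, Tgfb1 and Stat6. Il4ra, the receptor chain through which IL-4 signals, went from 359 and 464 to 193, 198, 225 and 288 (log2 fold change -0.87, adjusted p = 0.0109), a call lost without mouse 4 (-0.68) and after quantile normalization (-0.50). Stat6 had a log2 fold change of -0.43 (adjusted p = 0.0208), a call lost without mouse 3 (-0.44) or 4 (-0.41), with each mouse centred (-0.10) and after quantile normalization (-0.17). Alox15, a lipoxygenase typical of resident peritoneal macrophages, was at 11490.5 and 11361 after PBS and at 7434, 6911, 6223 and 3121 after IL-4c (log2 fold change -1.02, adjusted p = 0.0191), lowest in mouse 12, and its call was lost without mouse 3 (-1.02) or 4 (-1.03), with each mouse centred (-0.69) and after quantile normalization (-0.82). The tested members that did not pass were Ccl24, Irf4, Retnla, Pdcd1lg2, Cdh1, Klf4 and Ccl8. Socs1, Socs2, Pparg, Ccl17, Ccl22 and Il10 were at the floor in every mouse.

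**Figure D2:**
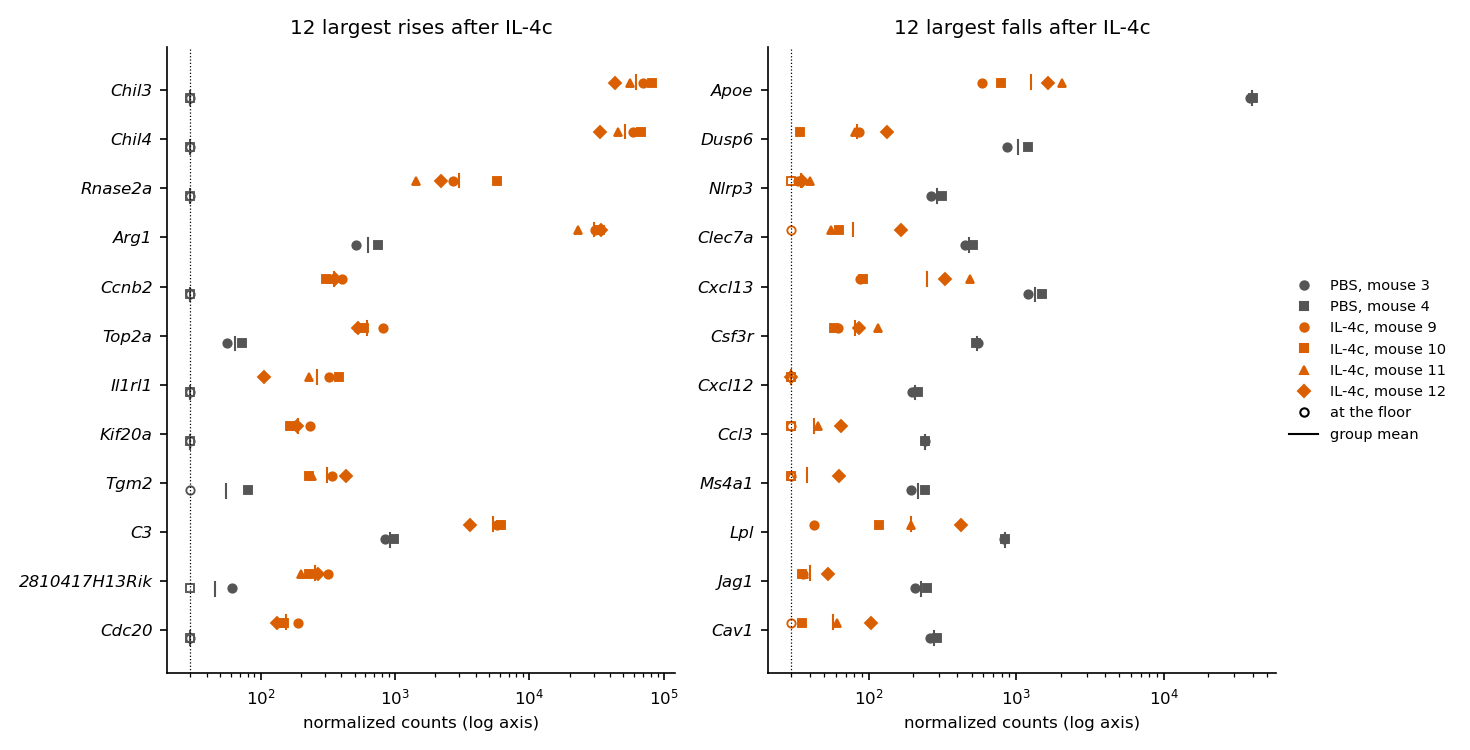
Normalized counts (log axis) in each of the 6 RαTd/Td mice for the 12 genes with the largest called rises (left) and falls (right) whose groups did not overlap, PBS in grey and IL-4c in orange, 1 symbol per mouse. Open symbols are at the floor of 30 (dotted line) and short bars are group means. Chil3, Chil4, Rnase2a, Ccnb2, Il1rl1, Kif20a and Cdc20 were at the floor in both PBS-treated mice, and Cxcl12 was at the floor in all 4 IL-4c-treated mice.

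Genes of cell division rose together. The panel held 6 genes of the cell cycle list and all were tested, of which 5 rose, none fell and 1 did not pass the test (median log2 fold change 2.47), beside 15.3% that rose among all tested genes. Top2a, the topoisomerase that untangles replicated chromosomes, was above the floor in both groups, at 56.1 and 73.2 after PBS and 818, 593, 540 and 534 after IL-4c (log2 fold change 3.23, SE 0.18, adjusted p = 1.09e-06). Mouse 9 was the highest. The other 4 genes that rose were at the floor in both PBS-treated mice, so their folds are lower limits. Ccnb2, a mitotic cyclin, reached 404, 305, 335 and 358, at least 6.20-fold higher. Kif20a, a kinesin of cytokinesis, reached 231, 165, 180 and 188, at least 3.38-fold higher. The mice lay close together for both. Birc5, also known as survivin and part of the chromosomal passenger complex, reached 166, 152, 139 and 135, at least 2.63-fold higher. Cdc20, the activator of the anaphase-promoting complex, reached 191, 149.8, 148 and 133, at least 2.74-fold higher. Mouse 9 was the highest of the 4 for each of these genes too. Cdkn1a, the cell cycle inhibitor p21, was at 768 and 924 after PBS and 598, 706, 777 and 602 after IL-4c and was not called (log2 fold change -0.34, adjusted p = 0.0913). Outside the list, 2810417H13Rik, a factor that binds the replication clamp PCNA, went from 61.7 and 30 to 319.9, 228, 198 and 266 (log2 fold change 2.51, adjusted p = 0.000145). Mcm5, a subunit of the replicative helicase picked after its values were seen, went from 118 and 84.5 to 477, 440.2, 393 and 592 (log2 fold change 2.23, adjusted p = 0.00107).

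The promoters of the cell cycle genes were also read, since these genes moved together. Promoters of genes used in mitosis are known for CCAAT boxes and for the cell cycle homology element TTTGAA, motifs chosen after the values were seen. Capitals mark CCAAT and TTTGAA on either strand in the 250 bases before the start (RefSeq, GRCm38.p6, minus strand), at chr9:70421555-70421804 for Ccnb2, chr4:118437344-118437593 for Cdc20 and chr11:99024190-99024439 for Top2a.
Ccnb2: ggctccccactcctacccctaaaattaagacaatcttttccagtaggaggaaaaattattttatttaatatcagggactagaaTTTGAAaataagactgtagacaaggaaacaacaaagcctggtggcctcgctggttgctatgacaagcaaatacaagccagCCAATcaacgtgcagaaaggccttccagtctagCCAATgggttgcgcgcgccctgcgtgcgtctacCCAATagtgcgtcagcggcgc
Cdc20: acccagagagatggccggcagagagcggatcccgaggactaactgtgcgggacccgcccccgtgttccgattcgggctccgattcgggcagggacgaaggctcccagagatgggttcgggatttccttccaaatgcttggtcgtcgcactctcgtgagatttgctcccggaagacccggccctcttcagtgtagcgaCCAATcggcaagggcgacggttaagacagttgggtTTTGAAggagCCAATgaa
Top2a: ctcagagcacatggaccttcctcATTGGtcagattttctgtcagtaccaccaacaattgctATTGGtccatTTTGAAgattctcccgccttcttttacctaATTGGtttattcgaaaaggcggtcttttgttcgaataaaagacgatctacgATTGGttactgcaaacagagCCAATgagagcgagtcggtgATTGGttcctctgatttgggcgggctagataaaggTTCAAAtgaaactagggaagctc
Ccnb2 holds 3 CCAAT boxes and 1 TTTGAA, Cdc20 holds 2 and 1, and Top2a holds 6 and 2. Birc5 holds neither. Kif20a had no window among those searched, which left out a whole chromosome. Of all 32851 windows searched, 33.8% hold CCAAT and 16.0% hold TTTGAA. Of the 8 largest rises with a window, 6 hold CCAAT, including Chil3, Il1rl1 and Rnase2a. TTTGAA is held by 6 as well, including Chil3, Chil4 and Rnase2a, so neither motif was particular to the division genes. Of the 10 largest falls with a window, 3 hold CCAAT and 3 hold TTTGAA.

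The other large rises belonged to several groups. C3, the central component of complement, went from 843 and 980.3 to 5702, 6100.2, 6010.2 and 3631 (log2 fold change 2.53, SE 0.32, adjusted p = 0.000241). Mouse 12 was the lowest of the 4. Il6, an inflammatory cytokine, rose from the floor to 217, 194, 126 and 81.5, at least 2.57-fold (adjusted p = 0.000469), highest in mouse 9 and lowest in mouse 12. Adam8, a membrane protease, went from 385 and 331 to 1069, 1071, 1277 and 1439 (log2 fold change 1.75, adjusted p = 7.55e-05). Fcgr2b, the inhibitory Fc receptor, went from 1659 and 1549 to 5112, 5038, 3706 and 4350.3 (log2 fold change 1.49, adjusted p = 6.16e-05). For Adam8 and Fcgr2b the 4 IL-4c-treated mice were within a narrow band. Ctsl, a lysosomal protease, went from 110.3 and 158 to 384, 382, 272 and 643 (log2 fold change 1.59, adjusted p = 0.00206), highest in mouse 12. Of the 68 rises, 22 had both PBS-treated mice at the floor. For 17 of these the lower limit of the fold was above 1, and for Pdgfb, Il1a, Ndc80, Golim4 and Col4a1 it was not, since their geometric means after IL-4c lay under what could be measured after PBS. When the floor was raised to 56.3 in every mouse, these 5 lost their call, and so did Eif2b4, Batf3, Itga5 and Serpinb7 among the others named here.

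Apoe had the largest fall on the panel. Apoe, the lipid carrier that macrophages secrete, was at 38543 and 40251 after PBS, second on the panel only to Fn1 among the resting cells, and at 583, 791, 2058 and 1646 after IL-4c (log2 fold change -5.14, SE 0.46, adjusted p = 2.15e-05). Mice 11 and 12 kept more than mice 9 and 10. Of the lipid and eicosanoid list, 13 genes were tested, of which 1 rose, 7 fell and 5 did not pass the test (median log2 fold change -0.51). The shares over all tested genes were 15.3% that rose and 36.6% that fell. Lpl, the lipase that frees fatty acids from lipoproteins, was at 832 and 843 after PBS and 42.9, 118, 195 and 425 after IL-4c (log2 fold change -2.54, SE 0.81, adjusted p = 0.0242). The range of the 4 mice was 3.28 on the log2 scale for Lpl and 1.82 for Apoe. The Lpl call was lost without mouse 1 (-2.54), 2 (-2.54), 3 (-2.55), 4 (-2.53) or 10 (-2.44) and with only the 6 RαTd/Td mice fitted. Cd36, a fatty acid transporter and scavenger receptor, went from 2482 and 2270.4 to 409, 513, 718 and 1123 (log2 fold change -1.89, adjusted p = 0.00348). Fabp4, a fatty acid binding protein, went from 1527 and 1437 to 626, 715, 1083 and 558 (log2 fold change -1.04, adjusted p = 0.0293), a call lost without mouse 3 (-0.99), 4 (-1.08), 9 (-0.97), 10 (-1.03) or 12 (-0.91), with each mouse centred (-0.71), after quantile normalization (-0.78) and with a single floor (-1.04). Alox15, Alox5ap and Ptgs1 also fell, the last call being lost without mouse 3 (-0.59) or 4 (-0.43), with each mouse centred (-0.18) and after quantile normalization (-0.26). Lta4h, the enzyme that makes leukotriene B4, was the only one called higher (log2 fold change 0.49, adjusted p = 0.00514).

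Most tested immediate early genes, and the genes of a pair of phosphatases that shut off MAP kinases, fell after IL-4c. Dusp6, which removes phosphate from ERK, went from 873 and 1200 to 85.7, 34.1, 80.8 and 134 (log2 fold change -3.75, SE 0.44, adjusted p = 0.000142). Dusp1, which acts on p38 and JNK, went from 9491 and 10184 to 2096, 1828, 2626 and 2119 (log2 fold change -2.19, SE 0.22, adjusted p = 4.45e-05). The groups stood well apart for both. Of the 11 tested MAP kinases and phosphatases, 1 rose, 4 fell and 6 did not pass the test (median log2 fold change -0.28). That share of falls is near the 36.6% of all tested genes. Dusp2, among those that did not pass, was at the floor in all 6 RαTd/Td mice. Hras, a small GTPase upstream of the kinases, was the member that rose (log2 fold change 0.73, adjusted p = 0.0207), a call lost without mouse 3 (0.74), 4 (0.71) or 10 (0.62). Map2k4, which activates JNK, fell (log2 fold change -0.67, adjusted p = 0.0107), a call lost without mouse 3 (-0.62), with each mouse centred (-0.34) and after quantile normalization (-0.35). Mapk14, the p38α kinase, fell as well (log2 fold change -0.52, adjusted p = 0.00196), a call lost with each mouse centred (-0.19) and after quantile normalization (-0.21). Of the 11 tested immediate early genes, none rose, 9 fell and 2 did not pass the test (median log2 fold change -1.56), the lowest median of the 25 lists, where 36.6% of all tested genes fell. Jun, a subunit of AP-1, went from 533 and 595 to 170.4, 127, 124 and 114 (log2 fold change -2.08, adjusted p = 4.98e-06). Atf3, a stress-induced partner of AP-1, went from 727 and 777 to 179, 209, 202 and 201 (log2 fold change -1.93, adjusted p = 3.53e-06). Nr4a1, an early-induced nuclear receptor, went from 349 and 556 to 149, 122, 142 and 79.2 (log2 fold change -1.87, adjusted p = 0.000478). The 4 IL-4c-treated mice were close together for Atf3 and less so for Nr4a1. Btg2, Ier3, Fosb, Rgs1 and Myc also fell, the Myc call being lost without mouse 4 (-0.54), with each mouse centred (-0.40) and after quantile normalization (-0.45), while Nr4a2 and Klf4 were not called.

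**Figure D3:**
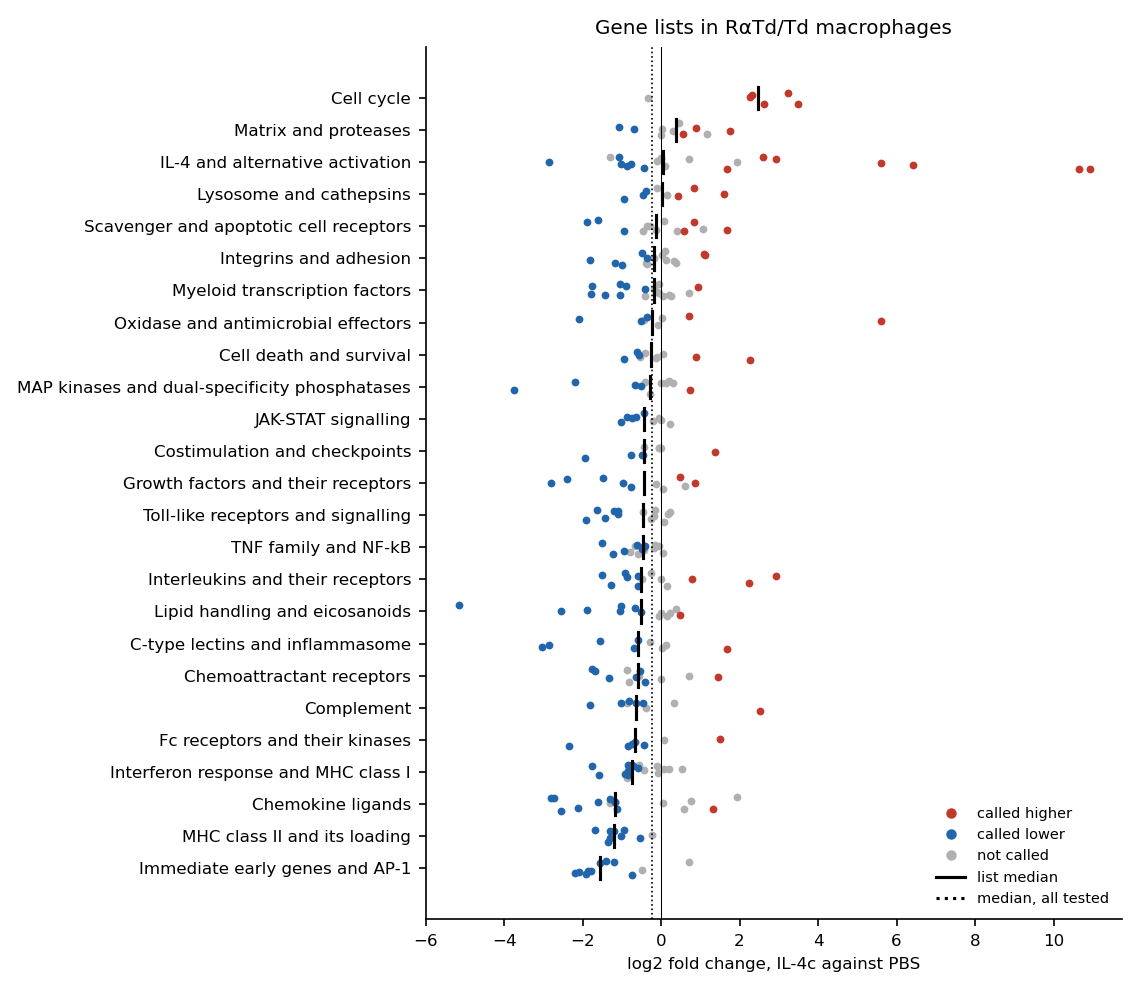
Log2 fold changes (x axis, IL-4c against PBS in RαTd/Td mice) of the tested members of each of the 25 gene lists (y axis), 1 point per gene, red where called higher, blue where called lower and grey otherwise. Black bars are list medians and the dotted line is the median of all tested genes, -0.23. Cell cycle genes are at the top with a median of 2.47, and immediate early genes are at the bottom with -1.56. A gene may stand in more than 1 list.

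Among sensors of microbial products, Nlrp3 and Clec7a had some of the largest falls. Nlrp3, the sensor of an inflammasome, went from 265 and 315 to 33.3, 30, 39.9 and 35.6 (log2 fold change -3.03, SE 0.19, adjusted p = 1.93e-06). Clec7a, which encodes the β-glucan receptor Dectin-1, went from 447 and 509 to 30, 63.0, 56.1 and 165 (log2 fold change -2.86, SE 0.54, adjusted p = 0.00181). The groups did not overlap for either gene, as in 162 of the 163 falls, and mouse 12 was highest for Clec7a. Of 9 tested C-type lectin and inflammasome genes, 1 rose, 5 fell and 3 did not pass the test (median log2 fold change -0.59), beside 36.6% of all tested genes that fell. Clec5a, a lectin that pairs with an activating adaptor, went from 107 and 77.0 to the floor in all 4 mice, at least 2.80-fold lower (adjusted p = 0.000315). Of 13 tested Toll-like receptor genes, none rose, 6 fell and 7 did not pass the test (median log2 fold change -0.47), a share of falls near that of all tested genes. Tlr2, which senses bacterial lipoproteins, went from 151 and 150.2 to 30, 30, 63.6 and 42.5 (log2 fold change -1.91, adjusted p = 0.000313). Cd14, a co-receptor for lipopolysaccharide, went from 2042 and 2066 to 526, 519, 830 and 847 (log2 fold change -1.63, adjusted p = 0.000358). Mice 9 and 10 were lower than mice 11 and 12 for both. Tlr7 (log2 fold change -1.42, adjusted p = 0.00372) and Tlr8 (log2 fold change -1.19, adjusted p = 0.00889), which sense RNA, fell too, the Tlr7 call being lost without mouse 4 (-1.15) and the Tlr8 call without mouse 4 (-0.98). Tlr4, the lipopolysaccharide receptor itself, was not called (log2 fold change -0.17, adjusted p = 0.481).

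Of the chemokines, Cxcl13, Cxcl12 and Ccl3 had some of the largest falls. Of 34 ligands on the panel, 15 were tested, of which 1 rose, 9 fell and 5 did not pass the test (median log2 fold change -1.18), beside 36.6% of all tested genes that fell, and the other 19 on the panel never left the floor. Cxcl13, which attracts B cells, went from 1202 and 1489 to 87.6, 92.0, 484 and 327 (log2 fold change -2.82, SE 0.63, adjusted p = 0.0044). Mice 9 and 10 lay below mice 11 and 12, and the Cxcl13 call was lost with only the 6 RαTd/Td mice fitted. Cxcl12, the ligand of CXCR4, went from 196 and 216 to the floor in all 4 mice, at least 6.38-fold lower (adjusted p = 3.23e-06). Ccl3, an inflammatory chemokine, went from 243 and 240.4 to 30, 30, 45.3 and 65.4 (log2 fold change -2.55, adjusted p = 0.000135). Ccl2, the main attractant of monocytes, went from 187 and 208 to 39.0, 30, 30 and 112 (log2 fold change -2.12, adjusted p = 0.00389). Mouse 12 was the highest after IL-4c for Ccl3 and Ccl2. Cxcl14, Cxcl1, Cxcl16, Cxcl2 and Pf4 also fell. The Cxcl14 call held in every setting that tested it. Those of Cxcl1 (-0.98), Cxcl2 (-0.83), Cxcl16 (-0.85) and Pf4 (-0.78) were lost with mice centred and values at the floor left there. Ccl6 was the ligand that rose, from 1495 and 1539.9 to 3316, 3308, 3083 and 6261 (log2 fold change 1.33, adjusted p = 0.00879), and its call was lost without mouse 3 (1.31) or 4 (1.35). Of 12 tested receptors, 1 rose, 6 fell and 5 did not pass the test (median log2 fold change -0.60), beside the same 36.6%. Fpr2, a formyl peptide receptor, went from 189 and 210.3 to 30, 30, 109 and 117 (log2 fold change -1.75, adjusted p = 0.0231). The Fpr2 call was lost without mouse 3 (-1.83), 4 (-1.68) or 10 (-1.44), after quantile normalization (-1.49) and with only the 6 RαTd/Td mice fitted. Fpr1, the paralog of Fpr2, went from 114 and 92.0 to 30, 30, 35.6 and 30 (log2 fold change -1.68, adjusted p = 3.53e-06). Ccrl2, a non-signalling receptor for chemerin, fell as well (log2 fold change -1.32, adjusted p = 0.00372).

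Among 13 tested interleukins and receptors, 3 rose, 6 fell and 4 did not pass the test (median log2 fold change -0.50). Both list counts here stand beside 15.3% of all tested genes that rose and 36.6% that fell. Il17ra, the receptor for IL-17, went from 295 and 272 to 164, 112, 63.6 and 84.9 (log2 fold change -1.50, adjusted p = 0.00259). Il10ra, the receptor for IL-10, went from 445 and 468 to 136, 162, 259.8 and 218 (log2 fold change -1.27, adjusted p = 0.0017). The groups did not overlap for either, as in 162 of the 163 falls. Of 10 growth factors and receptors, 2 rose, 5 fell and 3 did not pass the test (median log2 fold change -0.44). Csf3r, the G-CSF receptor, went from 555 and 537 to 61.9, 57.9, 115 and 86.1 (log2 fold change -2.81, SE 0.37, adjusted p = 0.000265). Hgf, hepatocyte growth factor, went from 176 and 219.7 to 30, 30, 66.8 and 30 (log2 fold change -2.39, adjusted p = 0.000241). Hgf was at the floor in 3 of the 4 IL-4c-treated mice. Csf1r, the receptor on which macrophage survival depends, went from 4018 and 3987 to 1635, 2039, 2357 and 2145 (log2 fold change -0.98, adjusted p = 0.000952). Osm, oncostatin M, went from 200 and 235 to 123, 84.7, 73.3 and 47.1 (log2 fold change -1.47, adjusted p = 0.00369). Beside Csf3r, which neutrophils also express, S100a8 was at 74.8 and 30 and then 30, 30, 35.6 and 47.1, and the neutrophil genes Ly6g, Mpo, Elane, Camp, Cxcr2 and Mmp8 were at the floor in all 11 mice.

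MHC class II genes fell in the sorted cells, and the B cell gene Ms4a1 fell beside them. Of 9 tested genes for class II molecules and their loading, none rose, 8 fell and 1 did not pass the test (median log2 fold change -1.19), beside 36.6% of all tested genes that fell. Cd74, the invariant chain, went from 12683 and 16768 to 3331, 6055, 6332 and 9394 (log2 fold change -1.31, adjusted p = 0.0136). H2-Aa, the α chain of I-A, went from 6135 and 8321 to 1928, 3218, 3490.1 and 4431 (log2 fold change -1.19, adjusted p = 0.0127). H2-Eb1, the β chain of I-E, went from 2123 and 2734 to 471, 1016, 1106 and 1523 (log2 fold change -1.35, adjusted p = 0.0282). Mouse 9 was the lowest and mouse 12 the highest for all 3. H2-DMb2 (log2 fold change -1.68, adjusted p = 0.000647) and H2-Ob (log2 fold change -1.30, adjusted p = 0.000314), which act on peptide loading, were at or near the floor after IL-4c. These falls rested on few mice. The call of Cd74 was lost without mouse 4 (-1.11) and that of H2-Aa without mouse 4 (-0.97). That of H2-Eb1 was lost without mouse 1 (-1.35), 2 (-1.35), 3 (-1.53), 4 (-1.16) or 10 (-1.38), with each mouse centred (-1.02) and with a single floor (-1.35). With only the 6 RαTd/Td mice fitted, Cd74, H2-Aa and H2-Eb1 all lost their call. Ms4a1, which encodes the B cell antigen CD20, moved with them, from 192 and 242 to 30, 30, 30 and 63.1 (log2 fold change -2.55, SE 0.35, adjusted p = 0.000323). Of the 14 B cell markers listed, 3 were on the panel. Their summed level was 289.7 to 302 after PBS and 90 to 123 after IL-4c, where 90 is the floor for 3 genes, with Fcer2a at the floor in all 11 mice and Cxcr5 above it, among the 6 mice, only in mouse 3. B cells carry class II molecules too, and the part of B cell RNA in the class II falls was not tested. In such pooled cells, fewer cells of a type and less RNA per cell cannot be told apart. Of 9 costimulation and checkpoint genes, 1 rose, 4 fell and 4 did not pass the test (median log2 fold change -0.44). Over all tested genes, 15.3% rose and 36.6% fell. Cd86, a ligand of CD28, went from 417 and 323 to 78.1, 94.0, 115 and 98.7 (log2 fold change -1.93, adjusted p = 0.000241). Cd80, its relative, fell less (log2 fold change -0.76, adjusted p = 0.0103), a call lost without mouse 3 (-0.78) or 4 (-0.74), with each mouse centred (-0.43) and after quantile normalization (-0.46). Cd47, a signal that stops engulfment, fell as well (log2 fold change -0.48, adjusted p = 0.00994), a call lost without mouse 4 (-0.42), with each mouse centred (-0.15) and after quantile normalization (-0.17). Cd274, which encodes the checkpoint ligand PD-L1, was the one that rose, from 30 and 58.2 to 123, 106, 92.7 and 120.5 (log2 fold change 1.37, adjusted p = 0.00373), a call lost without mouse 3 (0.91).

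Complement and Fc receptor genes moved both ways. Of 9 complement genes, 1 rose, 5 fell and 3 did not pass the test (median log2 fold change -0.63), and C3, given above, was the one that rose. This count and that of the Fc receptors stand beside 15.3% of all tested genes that rose and 36.6% that fell. C4a, a complement C4 gene, went from 16487 and 18678 to 5906, 5705, 5879.8 and 3156 (log2 fold change -1.81, adjusted p = 0.000612), lowest in mouse 12. C1qa, a chain of the initiating complex C1q, went from 8955 and 9538 to 3461, 4304, 5141 and 5463 (log2 fold change -1.03, adjusted p = 0.00126). C1qc, another chain, went from 14882 and 16576 to 7119.9, 8813, 10148 and 10112 (log2 fold change -0.81, adjusted p = 0.00166). C3 thus rose in the mice in which the upstream components C4 and C1q fell. C4a has a near-identical paralog, C4b, and whether the probe separates them was not tested. Of 7 Fc receptors and kinases, 1 rose, 5 fell and 1 did not pass the test (median log2 fold change -0.67). The inhibitory Fcgr2b rose, and the activating receptors fell. Fcgr1, the high-affinity receptor for IgG, went from 194 and 186 to 30, 30, 30 and 64.3 (log2 fold change -2.36, adjusted p = 0.000184). Fcgr3 went from 2235 and 2706 to 1215, 1176, 1699.8 and 1903 (log2 fold change -0.75, adjusted p = 0.0136), a call lost without mouse 4 (-0.61) and with each mouse centred (-0.42). Fcgr4 went from 1179 and 1534 to 614, 517, 894 and 1121 (log2 fold change -0.84, adjusted p = 0.0468), a call close to the threshold that was lost in 10 of 11 fits that left out a mouse (log2 fold changes between -1.03 and -0.65), with each mouse centred (-0.51), after quantile normalization (-0.72) and with a single floor (-0.84). Syk, the kinase that the activating receptors recruit, fell (log2 fold change -0.43, adjusted p = 0.0101), a call lost without mouse 3 (-0.35), with each mouse centred (-0.10) and after quantile normalization (-0.10). Vav1, which acts after Syk, fell too (log2 fold change -0.67, adjusted p = 0.00413), a call lost without mouse 4 (-0.52).

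Interferon-related genes and MHC class I genes either fell or were not called. Of 21 tested, none rose, 12 fell and 9 did not pass the test (median log2 fold change -0.75), beside 36.6% of all tested genes that fell. Irf8, a transcription factor of monocytes and dendritic cells, went from 87.8 and 122 to the floor in all 4 mice, at least 3.21-fold lower (adjusted p = 7.24e-06). Irf1, an interferon-γ target, went from 387 and 413 to 93.3, 112, 170.3 and 169.8 (log2 fold change -1.59, adjusted p = 0.000612). Tapbp, which loads peptides on class I, fell (log2 fold change -0.93, adjusted p = 0.00127), and so did the class I gene H2-D1, from 12623 and 13405 to 5832, 7119, 8939.9 and 6749.8 (log2 fold change -0.88, adjusted p = 0.00258). H2-K1, Isg15 and Irf7 were not called. Of 9 JAK-STAT genes, none rose, 5 fell and 4 did not pass the test (median log2 fold change -0.43), beside the same 36.6%. Socs3, a feedback inhibitor of cytokine receptors, went from 234 and 214 to 144, 92.0, 92.7 and 119 (log2 fold change -1.02, adjusted p = 0.0029). Stat5b, a transcription factor of cytokine receptors, fell (log2 fold change -0.73, adjusted p = 0.00843), a call lost without mouse 4 (-0.72), with each mouse centred (-0.40) and after quantile normalization (-0.44).

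Of 16 TNF family and NF-κB genes, none rose, 7 fell and 9 did not pass the test (median log2 fold change -0.47). Over all tested genes, 15.3% rose and 36.6% fell, the shares beside which each list count here stands. Nfkbiz, a nuclear cofactor of NF-κB, went from 499 and 614 to 178, 179.8, 273 and 166 (log2 fold change -1.50, adjusted p = 0.000458). Tnfrsf1b, the TNF receptor TNFR2, went from 523 and 516 to 189, 178, 259.8 and 287 (log2 fold change -1.21, adjusted p = 0.00102). Tnf itself was at the floor in every mouse. Of 10 cell death and survival genes, 2 rose, 3 fell and 5 did not pass the test (median log2 fold change -0.26). Birc5, given with the cell cycle, was among those that rose. Birc3 (log2 fold change -0.94, adjusted p = 0.000876) and Birc2 (log2 fold change -0.62, adjusted p = 0.0127), ubiquitin ligases of TNF signalling, fell, the latter call being lost without mouse 4 (-0.48), with each mouse centred (-0.29) and after quantile normalization (-0.33). Of 17 myeloid transcription factors, 1 rose, 7 fell and 9 did not pass the test (median log2 fold change -0.19). Ets1 (log2 fold change -1.79, adjusted p = 2.88e-06), Cebpa (log2 fold change -1.43, adjusted p = 0.0016) and Nfatc1 (log2 fold change -1.05, adjusted p = 0.000219) fell beside Irf8, and Batf3, which rose, was at 30 and 30 and then 45.7, 75.4, 51.7 and 66.6.

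Genes for uptake and digestion were split. Of 13 scavenger and apoptotic cell receptors, 3 rose, 3 fell and 7 did not pass the test (median log2 fold change -0.12). List counts here stand beside 15.3% of all tested genes that rose and 36.6% that fell. Timd4, a phosphatidylserine receptor of resident macrophages, went from 4129.8 and 4623 to 1371, 1441, 1646 and 1307 (log2 fold change -1.61, adjusted p = 8.8e-05). Mertk, a kinase that takes up apoptotic cells, went from 736 and 749 to 331, 353, 442 and 442 (log2 fold change -0.93, adjusted p = 0.00191). Mrc1, Cd68 and Anxa1 rose, the Anxa1 call being lost without mouse 3 (0.60) or 4 (0.57). Of the 8 markers of large peritoneal macrophages on the panel, Timd4, Cxcl13, Cd36, Alox15 and Selp fell, while Gata6, Itgam and Adgre1 were not called, and their summed level was 37345 to 37773 after PBS and 23484 to 32767 after IL-4c. Of 8 lysosomal genes, 3 rose, 3 fell and 2 did not pass the test (median log2 fold change 0.02). Cd68, a lysosomal membrane protein, went from 2394 and 2449 to 3421, 4077, 4418 and 5543 (log2 fold change 0.83, adjusted p = 0.00364). Ctss, the cathepsin that trims the invariant chain, went the other way, from 5929 and 6582 to 2708, 3019, 3326 and 3985 (log2 fold change -0.95, adjusted p = 0.00121). Grn, progranulin, fell (log2 fold change -0.46, adjusted p = 0.0109), a call lost without mouse 4 (-0.42), with each mouse centred (-0.13) and after quantile normalization (-0.26). Of 8 oxidase and antimicrobial genes, 2 rose, 3 fell and 3 did not pass the test (median log2 fold change -0.22). Arg1 led the rises with Txn1, thioredoxin (log2 fold change 0.71, adjusted p = 0.00191). Mpeg1, the pore-forming perforin-2, went from 2009 and 2036 to 408, 328, 532 and 713 (log2 fold change -2.09, adjusted p = 0.000308). Cybb, the catalytic subunit of the phagocyte oxidase, fell (log2 fold change -0.52, adjusted p = 0.013), a call lost without mouse 3 (-0.51) or 4 (-0.52) and with each mouse centred (-0.19). Nos2, the inducible nitric oxide synthase that competes with arginase for arginine, was at the floor in every mouse.

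Of 10 matrix and protease genes, 3 rose, 2 fell and 5 did not pass the test (median log2 fold change 0.37). This count and that of the adhesion genes stand beside 15.3% of all tested genes that rose and 36.6% that fell. Fn1, fibronectin, was the most abundant matrix gene, at 61849 and 58903 after PBS and 24062, 24419, 34472 and 32499 after IL-4c (log2 fold change -1.08, adjusted p = 0.000787). Serpinb2, an inhibitor of plasminogen activators, rose (log2 fold change 0.89, adjusted p = 0.0148), a call lost without mouse 4 (0.75), and Plaur, the receptor for urokinase, fell (log2 fold change -0.69, adjusted p = 0.00168). Of 15 adhesion genes, 2 rose, 5 fell and 8 did not pass the test (median log2 fold change -0.19). Itga4, an integrin chain, went from 835 and 915 to 311, 329.7, 573 and 376 (log2 fold change -1.18, adjusted p = 0.00192). Alcam, an adhesion molecule, rose from 273 and 205 to 509, 559, 562 and 436 (log2 fold change 1.12, adjusted p = 0.000323). Itga5, the fibronectin receptor chain, rose from the floor to 54.3, 64.1, 61.4 and 87.2, at least 1.17-fold, a call lost with a single floor (0.23). Jag1, a Notch ligand outside the lists, went from 206 and 249.8 to 36.2, 35.1, 36.7 and 52.8 (log2 fold change -2.49, adjusted p = 8.8e-05). Cav1, the coat protein of caveolae, went from 259.8 and 291 to 30, 35.1, 61.4 and 103 (log2 fold change -2.41, adjusted p = 0.00166).

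The 4 IL-4c-treated mice differed in their levels of the called genes, and whether they differed in degree of response was not tested. Over the 163 genes that fell, mouse 9 was the lowest of the 4 in 63, and the highest was mouse 11 in 65 and mouse 12 in 58. Over the 68 genes that rose, mouse 12 was the highest in 28 and mouse 11 the lowest in 29. The median distance from the PBS mean on the log2 scale was -1.13, -1.07, -0.84 and -0.86 over the falls and 1.11, 1.16, 0.91 and 1.20 over the rises. The genes that differed most among these mice, picked by their range and so chosen after their values were seen, were mostly high in mouse 12. Cd163, the haemoglobin scavenger receptor, was at 105 and 82.6 after PBS and 159, 251, 52.8 and 718 after IL-4c. Ccr2, the receptor that marks monocyte-derived cells, was at 249 and 259 and 61.9, 102, 139 and 464. Marco, a scavenger receptor, was at 1687 and 1326 and 463, 641, 2398 and 3111. Only mouse 12 was above both PBS-treated mice for Ccr2, and mice 11 and 12 were for Marco. Ccl24, an attractant of eosinophils, was at 2706 and 3502 and 657, 958, 1042 and 3689. Trem2, a lipid-sensing receptor, was at 118 and 146 and 88.6, 90.9, 76.5 and 342. Mouse 12 was again the one above PBS. None of these 5 genes was called, with log2 fold changes of 1.08 for Cd163, -0.83 for Ccr2, -0.29 for Marco, -1.30 for Ccl24 and -0.12 for Trem2. The reverse order was seen for Serpinb7, a serine protease inhibitor, which went from the floor to 289, 237, 102 and 47.1, a call lost without mouse 3 (2.13), 4 (2.13) or 10 (1.87) and with a single floor (1.31). Of the monocyte and small macrophage markers, all 5 on the panel were tested, and their summed level was 59939 to 62961 after PBS and 24666 to 35400 after IL-4c, most of it Fn1. Their part in the values of mouse 12 was not tested. Across genes, which are not replicates, mouse 12 correlated with the other 3 at r = 0.960 to 0.973, and mice 9 and 10 at 0.992. Leaving out mouse 12 gave 249 calls, and 224 of the 231 remained in the same direction.

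**Figure D4:**
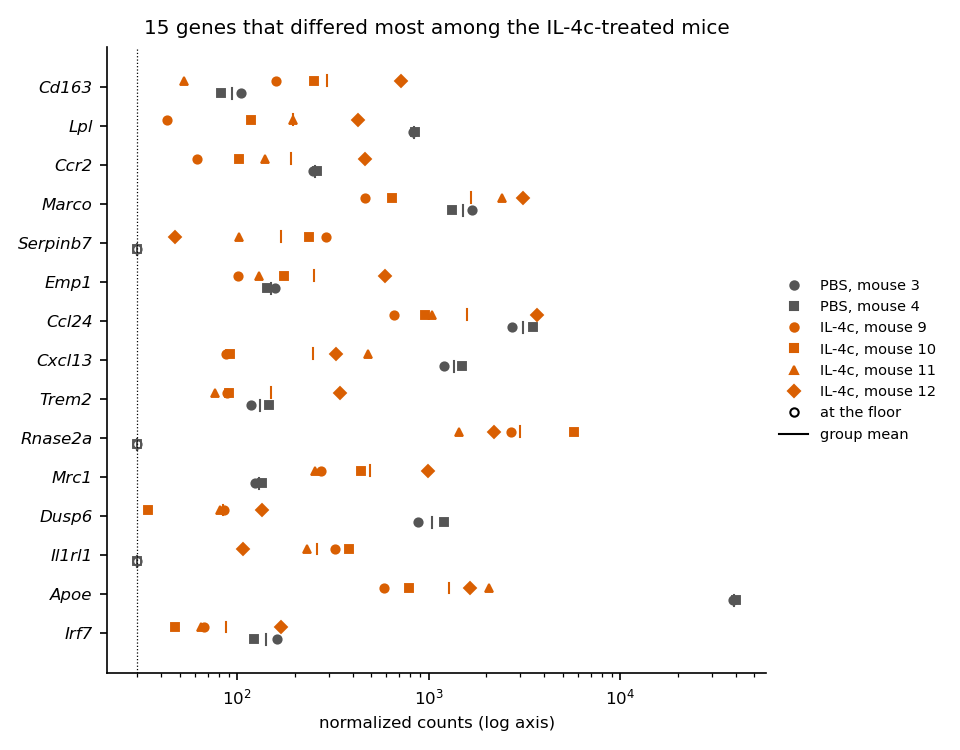
Normalized counts (log axis) in the 6 RαTd/Td mice for the 15 genes with the widest range among the 4 IL-4c-treated mice, of those above the floor in all 4. PBS is in grey, IL-4c in orange, 1 symbol per mouse, open symbols at the floor and short bars at the group mean. Mouse 12 (diamonds) is highest for Cd163, Lpl, Ccr2, Marco, Emp1, Ccl24, Trem2, Mrc1, Dusp6 and Irf7, and lowest for Serpinb7 and Il1rl1.

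The response was then set against that of Rα+/+ mice, a comparison whose group means share no mice with this one. Both comparisons came from the same fit, in which the error of each gene was estimated from the mice of both genotypes. The calls in the genotypes are therefore not independent, and their overlap is to be read with that limit. Of the 231 genes called in RαTd/Td mice, 158 (68.4%) were also called in Rα+/+ mice in the same direction, 1 in the opposite direction and 72 were not called there. The 158 were 76.7% of the 206 genes (46.3%) called in Rα+/+ mice. A call in one genotype alone is no difference, and when the difference in response was itself tested, 9 of 445 genes (2.02%) were called. Without adjustment, 69 genes had a p of at most 0.05. Of the 72 genes, Eif2b4 was the only one among these 9. For Arg1, Tgm2 and Mrc1 the difference did not reach that threshold. Arg1 changed by 5.60 in RαTd/Td and 3.54 in Rα+/+ mice on the log2 scale (difference 2.06, SE 0.57, adjusted p = 0.10). Tgm2 changed by 2.59 and 0.63 (difference 1.96, SE 0.62, adjusted p = 0.145). Arg1 stood at 1532 and 5062 in Rα+/+ mice after PBS and at 35072, 30921 and 31521 after IL-4c, so the genotypes overlapped after IL-4c and not after PBS. Mrc1 changed by 1.69 and 0.24 (difference 1.44, SE 0.76, adjusted p = 0.394). Chil3 and Rnase2a never left the floor after PBS in either genotype, so their responses can be set side by side only by the levels after IL-4c. In Rα+/+ mice these were 56993, 75307 and 91581 for Chil3 and 1656, 3812 and 3450.1 for Rnase2a, and the genotypes overlapped for both.

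Of the 9 genes, 6 had a lower log2 fold change in the knockout. The first is Retnla, which is deleted (difference -5.03, SE 0.21, adjusted p = 3.66e-07). Dusp2, a phosphatase of activated immune cells, was at the floor in all 6 RαTd/Td mice. In Rα+/+ mice Dusp2 went from the floor to 99.6, 110.4 and 121 (difference -1.84, SE 0.14, adjusted p = 5.53e-05). Its other mice were tied at the floor, so its own spread came only from the IL-4c-treated Rα+/+ mice. Batf, a transcription factor of the AP-1 family, was at 87.8 and 75.1 and 80.9, 71.3, 73.3 and 87.2 in RαTd/Td mice, and went from 54.7 and 51.7 to 90.5, 95.9 and 111 in Rα+/+ mice (difference -0.94, SE 0.19, adjusted p = 0.0345). Cxcr4, the receptor for CXCL12, fell from 103 and 113 to 72.4, 74.4, 65.8 and 86.1 in RαTd/Td mice and was at 30 and 36.8 and then 48.1, 64.3 and 56.8 in Rα+/+ mice (difference -1.27, SE 0.22, adjusted p = 0.0193). Its fall in the knockout was lost without mouse 4 (-0.46), with each mouse centred (-0.20) and after quantile normalization (-0.20). Jun was at 267 and 243 in Rα+/+ mice after PBS and 139, 136 and 144 after IL-4c (difference -1.22, SE 0.22, adjusted p = 0.022). Atf3 was at 424 and 309 and 209.5, 219.6 and 222 there (difference -1.19, SE 0.19, adjusted p = 0.0154). For both genes the values after IL-4c given above lay near those of Rα+/+ mice, and the PBS-treated knockout mice were the higher ones.

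The remaining 3 of the 9 had a higher log2 fold change in the knockout, and the floor bears on all of them. Fscn1, which bundles actin, went from 99.0 and 120.2 to 30, 30, 32.3 and 30 in RαTd/Td mice and from 474 and 358 to 30, 30 and 30 in Rα+/+ mice (difference 1.94, SE 0.19, adjusted p = 0.00028). Fpr1 went from 175 and 171 to 30, 30 and 30 in Rα+/+ mice (difference 0.81, SE 0.17, adjusted p = 0.044). Both genes ended at or beside the floor in both genotypes, so the size of each fall was set by the level after PBS. Eif2b4, a subunit of a translation initiation factor, was at 30 and 30 and 53.3, 57.9, 53.9 and 65.4 in RαTd/Td mice, and at 56.3 and 54.7 and 52.7, 48.5 and 59.2 in Rα+/+ mice (difference 0.97, SE 0.17, adjusted p = 0.0193). Its values were close to what could just be measured in PBS-treated RαTd/Td mice, and with a single floor for all mice the difference was 0.04 and not called. The count of 9 was unsteady: it was 34 without mouse 1, 3 without mouse 4 or 6, and 5 without mouse 5 or 7. Retnla, Dusp2 and Fscn1 kept their call in every setting that tested them, and all 3 had a group tied at the floor. The Atf3 call was lost without mouse 4 (-1.14) or 6 (-1.18). That of Cxcr4 was lost without mouse 4 (-1.20), 6 (-1.17) or 7 (-1.26) and with a single floor (-0.60). That of Jun was lost without mouse 2, 4, 5, 6, 7 or 10 (-1.24 to -1.14). That of Eif2b4 was also lost without mouse 3, 4, 5 or 6 (0.91 to 0.97) and with mice centred and values at the floor left there (0.67). That of Batf was lost without mouse 2, 3, 4, 5, 6, 7 or 10 (-1.05 to -0.83), after quantile normalization (-0.83), with a trend in the moderation (-0.94) and when each mouse had to exceed 30 (-0.94). That of Fpr1 was lost without mouse 2, 4, 5, 6, 7, 9 or 10 (0.66 to 0.83), with each mouse centred (0.86) and with a trend in the moderation (0.81).

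**Figure D5:**
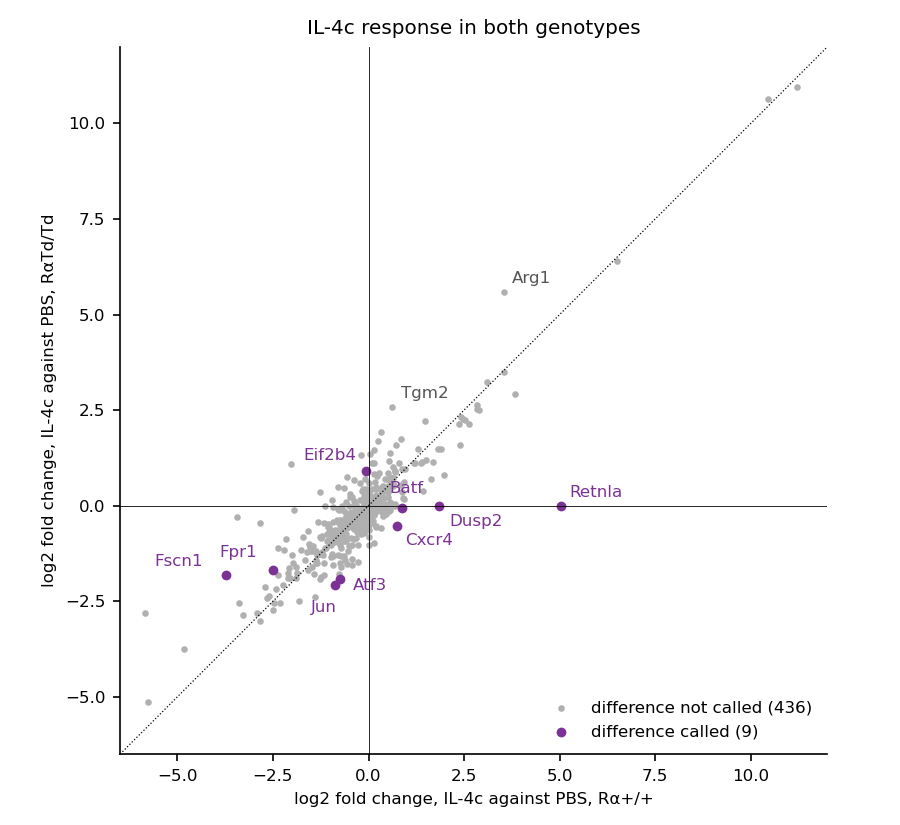
Each point is 1 of the 445 tested genes, with its log2 fold change, IL-4c against PBS, in Rα+/+ mice (x axis) and in RαTd/Td mice (y axis). The 9 genes whose difference in response was called are purple and named, the dotted line marks equal change, and Arg1 and Tgm2, whose differences were not called, are labelled in grey. Retnla and Dusp2 lie at 0 on the y axis, since both were at the floor in all RαTd/Td mice.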

How the data were processed

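The authors counted transcripts of sorted CD11b+F4/80+ cells on a Nanostring myeloid panel and, with the Advanced Analysis software of the platform, scaled them to 4 housekeeping genes. The deposited signal values, 1 column per mouse, are counts times 1 factor per mouse, with low values set to 30. In mice with factors above 1 this replaced values under 30 counts, which in mouse 4 are scaled values under 56.3. Every value above the floor that was checked (up to 1000) came out as a whole count within 0.1 counts once the factor of the mouse was divided out. Lower factors go with deeper lanes, so small values are less precise in PBS-treated RαTd/Td mice (factors 1.87 and 1.88) than after IL-4c (0.952 to 1.15). Scanner output per lane was not used here.

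Genes with a mean above 30 over the 11 mice were kept, control probes were dropped, and log2(value + 1) was fitted in R 4.3.3 with limma 3.58.1, with 1 coefficient per group over all 11 mice, moderated errors and Benjamini-Hochberg adjustment over 445 genes. Contrasts were IL-4c minus PBS in RαTd/Td mice and the difference of that response from the response of Rα+/+ mice. The fit was tested on simulated data. Replicates are separate mice of a single experiment. The members and gene lists were chosen with earlier results of these data known. Named genes are Retnla, the 12 largest called rises and 12 largest called falls with groups that did not overlap, up to 4 called members of each list with the largest change and others needed to account for it, all genes called in the difference, and the housekeeping genes; exceptions are marked. Alternatives changed the filter, the scaling, the constant added, the floor, the mice fitted, the moderation and the test (the methods' t-test). Promoters came from a RefSeq table of GRCm38.p6, with the windows of a whole chromosome left out of the search. Results for a few genes are not reported here.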

Additional observations from a re-analysis of the deposited data

Results flagged for a closer look

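Among the 4 IL-4c-treated RαTd/Td mice, 5 of 86 genes tested had 1 mouse standing apart, judged by its gap to the nearest other mouse as a share of the range and called past the 95% critical value of Dixon for 4 mice. Chance alone flags about 1 gene in 20. The share was 0.87 for C3, where mouse 12 was lowest, 0.945 for C4a, where mouse 12 was lowest, 0.851 for Cybb, where mouse 11 was highest, 0.897 for Jag1, where mouse 12 was highest, and 0.843 for Nfkbiz, where mouse 11 was highest.

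For 9 genes the test of the difference in response between RαTd/Td and Rα+/+ mice was passed on the log2 scale. The differences were -5.03 for Retnla, -1.84 for Dusp2, -1.27 for Cxcr4, -1.22 for Jun, -1.19 for Atf3, -0.94 for Batf, 0.81 for Fpr1, 0.97 for Eif2b4 and 1.94 for Fscn1.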

How the results depend on the processing

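With 231 genes called, the count of calls ran from 158 (without mouse 4) to 249 (without mouse 12) when 1 mouse was left out, with 49 to 73 higher and 109 to 176 lower. Leaving out mouse 3 or 4 leaves PBS-treated RαTd/Td mice with 1 mouse, assumed to vary like the other groups. Of the called genes, 139 kept their call with each mouse left out and 162 under every rescaling. The higher calls became 42 when only genes above 30 in each mouse were tested, which leaves out genes at the floor after PBS. When mice were centred on their median gene, 140 were higher, 8 of them at the floor in all 6 RαTd/Td mice, and 103 were lower. With values at the floor left there, a setting chosen after seeing the data, 98 were lower. The other alternatives kept each of these counts within 1.5 times. Of 100 called genes named by rule, 71 kept their call in every setting, 23 lost it without some mouse, each of them without mouse 3 or 4, and 18 lost it under the methods' t-test with adjustment. None changed direction.

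The 9 genes called for the difference in response became 4 with a mean above 100, 2 with values above 30 in each mouse, 18 after quantile normalization and 16 with a single floor, and 3 to 34 with 1 mouse left out. The cause was not tested, except that the 2 filters test fewer genes. Depth limits low genes most, since values under 56.3 could not be measured in PBS-treated RαTd/Td mice. The planned count model was not run, because whole counts under the floor are not in the values. No paired analysis was possible because the groups share no mouse numbers.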
